A study of Homo sapiens with 4 samples.

Results

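Genes of the mitochondrial respiratory chain were described on 4 Affymetrix whole-transcript arrays of human prostate cancer cell cultures. The members were all genes of the platform annotation whose symbols begin with NDUF, COX and a digit, UQCR, ATP5 or SDHA to SDHD. These were 37 of 14006 named genes, read by 38 of 14952 named probes. By complex, 2 belong to complex I, 4 to complex II, 6 to complex III, 22 to complex IV and 3 to complex V. The label of a whole respiratory chain holds only in part. The complex I and II members are all assembly factors, since no named probe carried a structural NDUF subunit or SDHA to SDHD, and the catalytic subunits of complex V and the 13 genes of mitochondrial DNA were likewise not analysed here. Complex IV is the best covered, with 10 of its widely expressed nuclear subunits present.

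The groups had 1 array each. PC3-L and PC3-H are cells of PC3, which came from a metastasis to bone and grows without androgen, separated with the antibody IIH6C4 into cells low and high for a glycan that binds laminin. LNCaP-AI is labelled as a derivative of LNCaP, obtained by culture in charcoal-stripped (steroid-poor) serum and described as androgen-independent; one of its labels adds medium conditioned by perineural cells. LNCaP came from a metastasis to a lymph node and is labelled androgen-dependent, though a free-text description calls it independent. The titles and source names give the low glycan label to PC3-L and LNCaP-AI, which are also labelled high for motility and invasion, and the high glycan label to PC3-H and LNCaP, labelled low for both. The free-text descriptions give the PC3 pair the opposite glycan labels, so every direction in that pair would turn with them. No group had a replicate, and a difference between 2 arrays therefore has no error and no p-value.

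The deposited values are linear intensities with medians between 39.8 and 41.2. The array labelled LNCaP-AI goes against its line label in most of the line markers measured. All 4 markers of LNCaP were past 2-fold lower on it than on LNCaP, and 7 of 8 markers of PC3 were past 2-fold higher. Against PC3-L, 0 of the 3 LNCaP markers past the limit were past 2-fold, and 2 of the 8 PC3 markers were past 2-fold lower, CXCL8 at 46.9 against 497 and EPAS1 at 142 against 512. KLK3, which encodes prostate-specific antigen, was 61.2 on it against 1781 on LNCaP, with 63.4 on PC3-L and 59.0 on PC3-H, and the kinase receptor AXL was 1015 on it against 47.4 on LNCaP, with 900.0 on PC3-L and 609 on PC3-H. Of the markers of other cell types, 2 fibroblast, 5 endothelial, 4 leukocyte and 4 perineurial or Schwann cell genes were named. In both pairs 0 of them were past 2-fold except CD68, a lysosomal gene of the leukocyte list, at 630.4 on PC3-L against 289.5 on PC3-H and 553 on the array labelled LNCaP-AI against 102 on LNCaP. The summed leukocyte intensity reached 761 on PC3-L and 434 on PC3-H and 684 on the array labelled LNCaP-AI against 236 on LNCaP, and the other 3 sums lay between 67.3 and 250.9 on all arrays. The part of CD68 in the differences of respiratory chain genes was not tested.

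The respiratory chain carries electrons from NADH (complex I) and succinate (complex II) through ubiquinone to complex III, from there by cytochrome c to complex IV, and the resulting proton gradient drives ATP synthesis by complex V. Complexes I, III, IV and V are built from proteins of both the nuclear and the mitochondrial genome, and dedicated assembly factors insert their metals, hemes and membrane subunits. The transcription factors NRF1, GABPA of the ETS family and YY1 are known to act at the promoters of many nuclear genes of the chain.

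The promoters of 4 members are shown first, chosen for their differences. UQCRC1 and UQCRC2 encode the paired core proteins of complex III and differed in opposite directions. COX18 had the largest difference in the LNCaP pair, and COX8A also differed in opposite directions in the pairs. Shares of members past 2-fold, or opposite in the pairs with a gap of at least 1, did not exceed those of all genes, as given below. The sequences are RefSeq's on build GRCh38.p14, 5′ to 3′ on the gene's strand, from 250 bases before to 50 after the annotated start; capitals mark matches on either strand to the NRF1 motif of 10 bases, CCGGAAG (the ETS motif) and AANATGGCG (the YY1 motif), which did not overlap one another here.
UQCRC1, chr3:48609597-48609896, minus strand: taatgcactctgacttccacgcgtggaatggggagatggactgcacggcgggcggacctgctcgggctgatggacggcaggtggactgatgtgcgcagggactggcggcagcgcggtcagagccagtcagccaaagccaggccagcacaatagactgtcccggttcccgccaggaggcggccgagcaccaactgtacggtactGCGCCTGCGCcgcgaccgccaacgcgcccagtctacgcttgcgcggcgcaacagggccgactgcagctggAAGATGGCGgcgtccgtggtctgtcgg
UQCRC2, chr16:21953111-21953410, plus strand: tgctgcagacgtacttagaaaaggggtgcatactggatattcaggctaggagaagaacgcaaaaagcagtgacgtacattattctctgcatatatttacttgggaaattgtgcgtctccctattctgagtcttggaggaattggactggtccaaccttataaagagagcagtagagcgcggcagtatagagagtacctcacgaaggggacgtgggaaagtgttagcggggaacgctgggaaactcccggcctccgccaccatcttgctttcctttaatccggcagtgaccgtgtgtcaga
COX18, chr4:73069710-73070009, minus strand: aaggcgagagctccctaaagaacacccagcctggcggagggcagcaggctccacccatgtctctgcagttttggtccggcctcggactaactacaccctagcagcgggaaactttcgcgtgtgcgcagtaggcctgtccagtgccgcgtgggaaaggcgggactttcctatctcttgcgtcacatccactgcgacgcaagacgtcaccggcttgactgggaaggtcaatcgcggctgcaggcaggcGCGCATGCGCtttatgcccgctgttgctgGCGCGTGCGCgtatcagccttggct
COX8A, chr11:63974370-63974669, plus strand: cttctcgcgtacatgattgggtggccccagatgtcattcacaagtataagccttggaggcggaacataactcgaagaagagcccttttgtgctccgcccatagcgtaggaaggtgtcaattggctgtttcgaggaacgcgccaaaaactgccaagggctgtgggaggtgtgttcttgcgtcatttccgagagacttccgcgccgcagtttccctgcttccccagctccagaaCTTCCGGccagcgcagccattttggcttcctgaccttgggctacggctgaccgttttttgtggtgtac

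In these windows the UQCRC1 promoter held 1 NRF1 match and 1 YY1 match, the COX18 promoter 2 NRF1 matches and the COX8A promoter 1 ETS match, while the UQCRC2 window held none of these letters. COX18 has another annotated start nearby, and only 1 of its windows is printed. Over the members, 38 promoter windows of 30 genes were found. The NRF1 letters stood in 7 of them (18.4%), against 7.78% of the 14466 windows of all measured genes and 5.78% of all 35116 windows. The ETS letters stood in 14 (36.8%), against 13.6% and 10.3%, and the YY1 letters in 6 (15.8%), against 4.52% and 3.19%. Windows of 1 gene can overlap, and a match is a description of letters, not of binding.

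Across the 4 arrays most members, like most genes, varied by less than 2-fold. Of the 35 that reached the 40th percentile of an array on at least 1 array, the limit used here for dim genes, 31 varied by less than 2-fold from the lowest to the highest array. That is 88.6% of the members, and over all 11509 genes past the same limit the share was 76.8%. The median log2 range over the 4 arrays was 0.52 for the members and 0.56 for all genes. The 4 that varied by more were UQCRC1, UQCRC2, COX18 and ATP5MJ. LNCaP was the highest array for 16 members and PC3-H for 14, against 26.5% and 28.2% of all genes. The array labelled LNCaP-AI was the highest for 1 and PC3-L for 4, against 19.4% and 25.9%. The lowest value lay on PC3-L for 15 members and on the array labelled LNCaP-AI for 12, against 29.3% and 17.6% of all genes, and on LNCaP for 5, against 26.4%. Most members thus had their highest value on an array labelled high for the glycan and their lowest on an array labelled low.

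**Figure D1:**
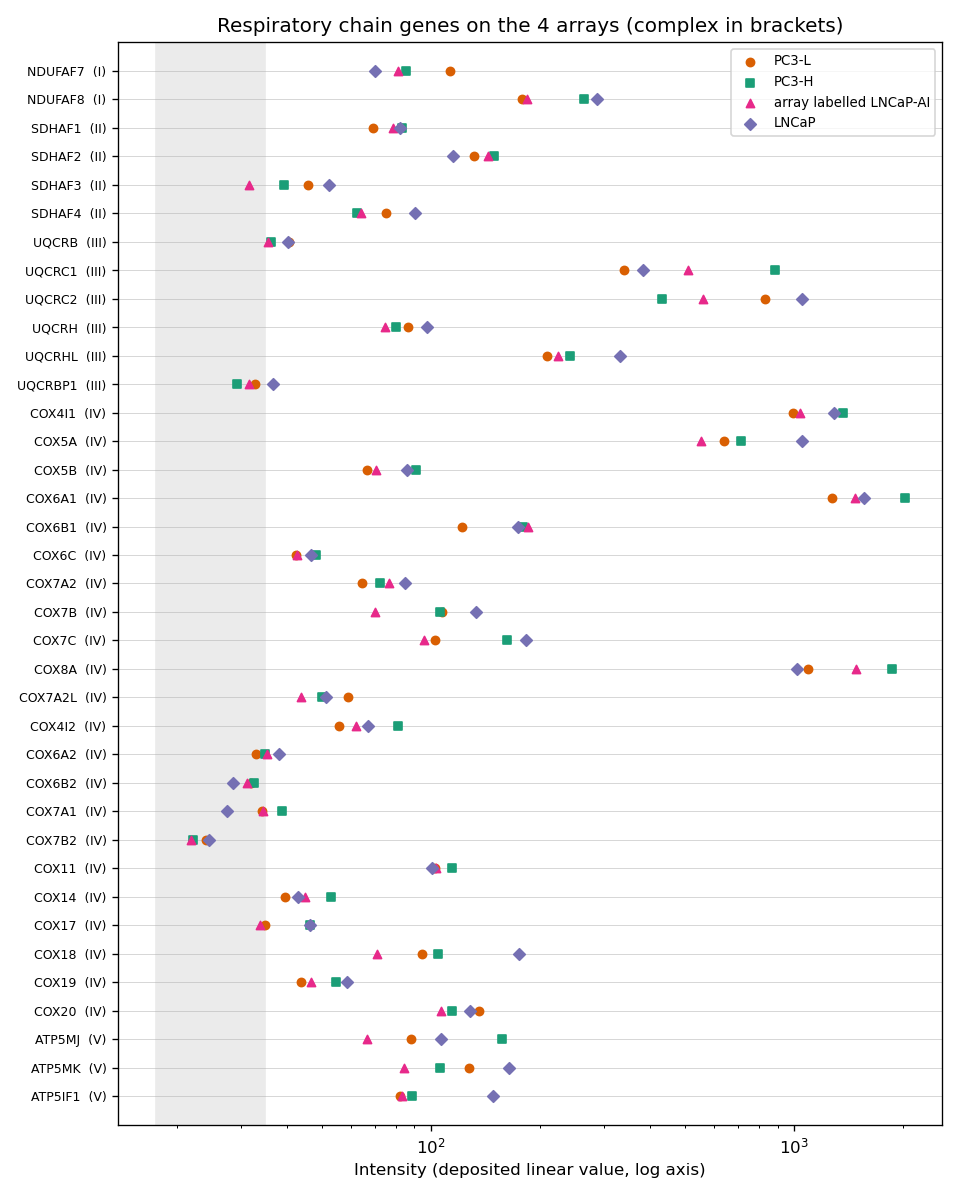
Intensity of each respiratory chain gene (rows, complex in brackets) on the 4 arrays, on a log axis; each point is 1 array, and the grey band ends at 34.8, the highest of the 4 arrays' 40th percentiles. UQCRC1 is brightest on PC3-H at 885 and UQCRC2 on LNCaP at 1051; rows are different probes, so levels are to be compared only along a row.

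Within PC3, the question was which respiratory chain genes differ with the glycan label. Of 37 members 34 passed the limit for dim genes in this pair. UQCRC1 was past 2-fold lower on PC3-L and 0 members were past 2-fold higher, where 3.77% of the 11126 genes tested were past 2-fold lower and 8.58% higher. At 1.5-fold, 5 members were lower and 1 higher, against 10.7% and 18.7% of all genes. The differences were thus small, but most pointed one way: 24 of 34 were below 0, against 51.6% of all genes. The median log2 difference was −0.18 for the members and −0.02 for all genes.

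Complex III held the largest differences, in both directions. UQCRC1 and UQCRC2 encode core proteins 1 and 2, the matrix-facing pair of the complex. The intensity of UQCRC1 reached 340.1 on PC3-L and 885 on PC3-H, a log2 difference of −1.38, or 2.60-fold lower; 5.39% of all genes had a larger difference in either direction. UQCRC2 had 829.6 on PC3-L against 433 on PC3-H, a log2 difference of 0.94, or 1.92-fold higher. PC3-H was the highest of the 4 arrays for UQCRC1, while for UQCRC2 it was the lowest, with the array labelled LNCaP-AI next at 559.6 and LNCaP at 1051. UQCRH, the acidic hinge protein that helps cytochrome c dock, was 86.4 against 80.0, and UQCRB, a ubiquinone-binding subunit, was 40.7 against 36.2. UQCRHL, a copy of UQCRH without introns, reached 208 on PC3-L and 241 on PC3-H; how far the probes of UQCRH and UQCRHL, or of UQCRB and its pseudogene, separate the copies is uncertain. The pseudogene UQCRBP1 was below the limit on both arrays.

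Cytochrome c1, the heme protein that hands electrons from complex III to cytochrome c, is encoded by CYC1, whose symbol lies outside the rule. It had 339 on PC3-L against 847 on PC3-H, with 391 on the array labelled LNCaP-AI and 426 on LNCaP. The log2 difference of the PC3 pair was −1.32, and PC3-H was the high array for CYC1 as it was for UQCRC1.

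**Figure D2:**
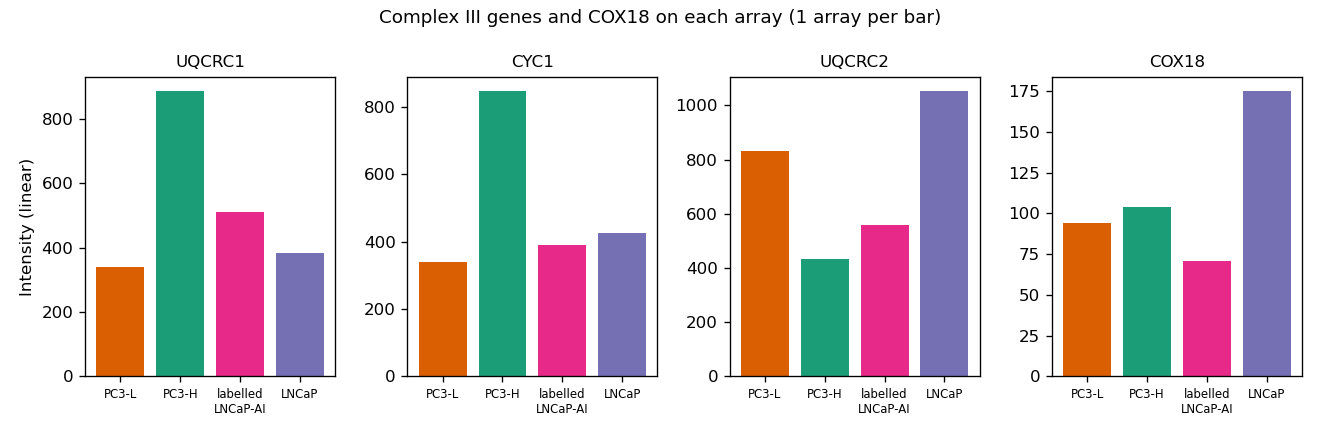
Intensity (linear axis from 0) of UQCRC1, CYC1, UQCRC2 and COX18, 1 bar per array. UQCRC1 and CYC1 are highest on PC3-H (885 and 847) and UQCRC2 is lowest there (433), while COX18 is highest on LNCaP (175).

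The 10 widely expressed complex IV subunits measured were lower on PC3-L in 9 cases, where 51.6% of all genes were below 0. Their log2 differences ran from −0.77 to 0.01 with a median of −0.45, none past 2-fold. COX8A, one of the smallest subunits, had 1093 on PC3-L against 1860.2 on PC3-H (log2 difference −0.77). COX6A1, a regulatory subunit, had 1269 against 2014 (−0.67), and COX7C had 102 against 162 (−0.65). COX4I1, the regulatory subunit that binds ATP, had 993 on PC3-L against 1365 on PC3-H (−0.46). COX6B1, which faces the intermembrane space, had 121 against 179 (−0.55), COX5B, which binds zinc, 66.5 against 91.1 (−0.45), and COX5A 639 against 715 (−0.16). COX7A2 and COX6C, at 64.5 against 72.3 and 42.6 against 48.3, were within 1.13-fold, and COX7B, at 107 against 106, was the 1 subunit that was not lower.

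Gene length moves with this result. With all genes of this pair split by length into 4 equal groups, the median log2 difference was −0.13 in the shortest group and 0.26 in the longest, and 29 of the 34 members lay in the 2 shorter groups. The part of length in the result was not tested beyond the correction below. Members had a median gene length of 10109 bases, against 22988.5 for all genes. With a trend of the difference with length removed, the median of the 10 subunits was −0.32, with 9 of 10 still below 0. Of all members, 21 of 34 were below 0. The correction keeps the median over all genes at −0.02, and the share of all genes below 0 after it was not computed. The COX6A1 value comes from the brighter of its 2 probes. In the order of probe numbers, which runs along the chromosomes, all 20 neighbours of that probe lay on chromosome 6, while COX6A1 lies on chromosome 12; the other 37 member probes stood among genes of their own chromosome. The second COX6A1 probe was dim, at 21.7 on PC3-L against 22.5 on PC3-H. What that probe reads was not tested, and without COX6A1 the median of the other 9 subunits was −0.45.

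Of the 5 isoforms of complex IV that are used in particular tissues, 3 passed the limit in this pair. COX4I2, which lung and oxygen-deprived cells use in place of COX4I1, reached 55.9 on PC3-L and 81.2 on PC3-H (log2 difference −0.53). COX7A1 and COX6A2, the heart and muscle forms, were 34.3 against 38.8 and 32.8 against 34.9. COX6B2 and COX7B2, the testis forms, did not pass the limit on either array of the pair. COX7A2L, which is related to COX7A2 and joins complexes III and IV into supercomplexes, reached 59.1 on PC3-L and 50.2 on PC3-H (0.23).

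Assembly factors of complex IV were lower on PC3-L in 5 of 6 cases, where 51.6% of all genes were below 0. Their log2 differences lay between −0.41 and 0.24, with 0 past 1.5-fold. COX17, which carries copper, reached 34.8 on PC3-L and 46.5 on PC3-H, and COX14, which acts on newly made COX1, was 39.6 against 53.0. COX19 and COX11, further factors of copper delivery, were 43.8 against 54.5 and 102 against 114. COX18, which inserts part of COX2 into the membrane, was 94.3 against 104, and COX20, a chaperone of COX2, was the 1 not lower, at 135 against 114. The factors of complexes I and II split evenly: NDUFAF8 reached 178 on PC3-L and 264 on PC3-H (−0.57) and SDHAF1, an iron-sulfur factor, 69.3 against 83.2. SDHAF2, which attaches the flavin to SDHA, was 131 against 149. NDUFAF7, a methyltransferase that modifies a complex I subunit, reached 113 on PC3-L and 85.1 on PC3-H (0.40). SDHAF3 and SDHAF4 were 45.7 against 39.4 and 75.1 against 62.3.

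Of complex V, 3 genes were measured. ATP5MJ, a small membrane subunit, had 88.0 on PC3-L against 157 on PC3-H, a log2 difference of −0.83. ATP5MK, another small membrane subunit, had 127 against 106 (0.26), and ATP5IF1, which inhibits ATP hydrolysis by the enzyme, had 82.0 against 88.6 (−0.11). PC3-H was the highest of the 4 arrays for ATP5MJ only.

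**Figure D3:**
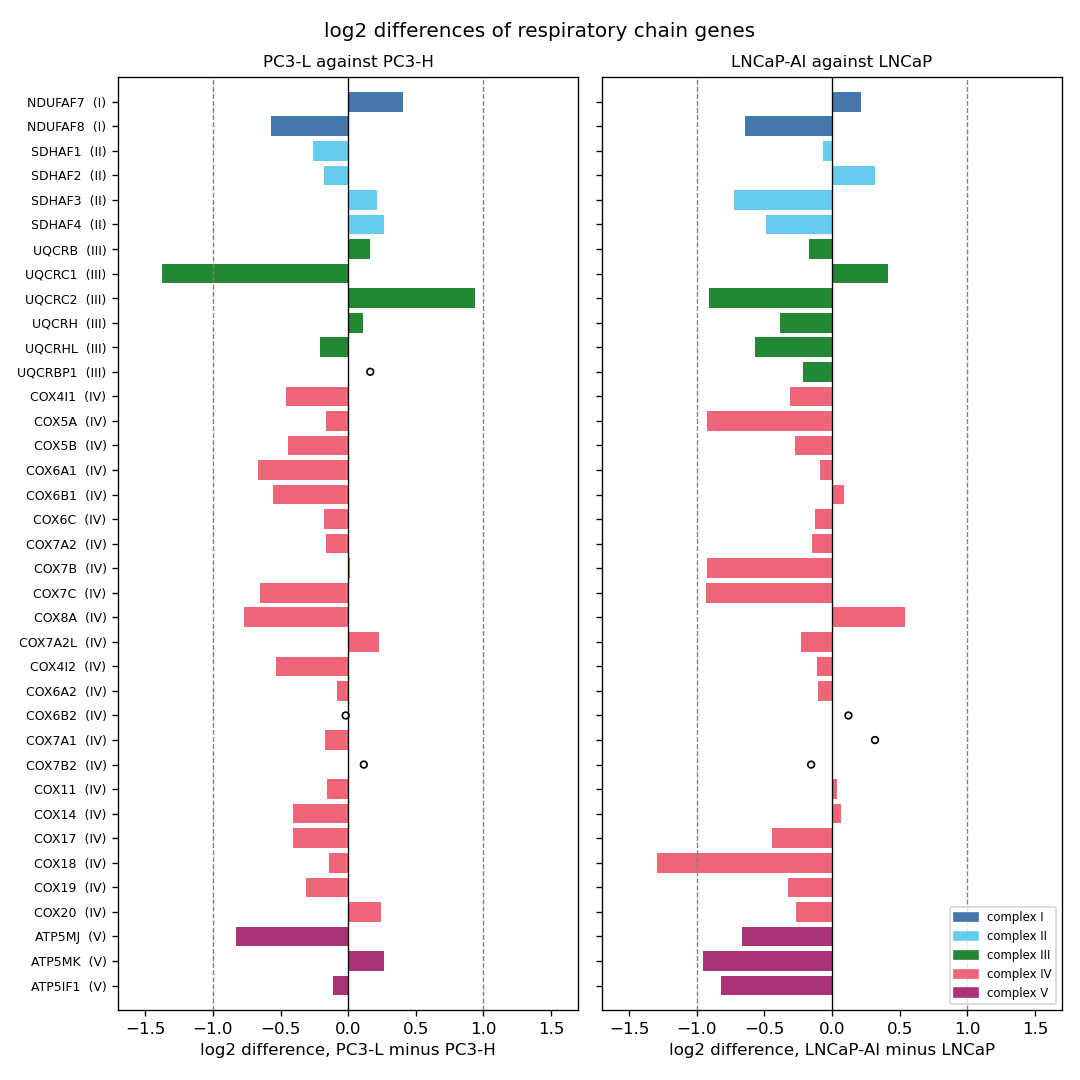
log2 difference of each gene, PC3-L minus PC3-H (left) and LNCaP-AI minus LNCaP (right), coloured by complex; dashed lines mark 2-fold, and open circles mark genes below the limit for dim genes in that pair. Bars past 2-fold are UQCRC1 on the left (−1.38) and COX18 on the right (−1.29).

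The second pair sets LNCaP-AI against LNCaP. By their labels these differ in androgen dependence, in the steroid-poor culture of LNCaP-AI, and in glycan, motility and invasion. Line and labels cannot be told apart in the directions of this pair, given the line markers above. COX18 was past 2-fold lower and 0 members were past 2-fold higher among 34 past the limit, against 5.13% and 5.45% of the 11135 genes tested. At 1.5-fold, 10 members were lower and 0 higher, against 12.3% and 11.4% of all genes. Below 0 were 27 of 34, against 49.4% of all genes, and the median log2 difference was −0.27 for the members and 0.005 for all genes. With PC3-L in place of the array labelled LNCaP-AI, 0 members were past 2-fold and the median was −0.26, with 27 of 35 below 0. The median over all genes was then −0.01. The shares of all genes past 2-fold and below 0 were not computed for that comparison.

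COX18 had 70.8 on the array labelled LNCaP-AI against 175 on LNCaP, 2.45-fold lower, and 6.54% of all genes had a larger difference. LNCaP was its high array, with 94.3 on PC3-L and 104 on PC3-H. With PC3-L in place of the array labelled LNCaP-AI its log2 difference was −0.88, within 2-fold.

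In complex III the core proteins again differed in opposite directions, but the other way round. UQCRC2 was 559.6 on the array labelled LNCaP-AI against 1051 on LNCaP (log2 difference −0.91). UQCRC1 was 509 against 382 (0.41), and with PC3-L in place of the array labelled LNCaP-AI its difference turned to −0.17. UQCRHL was 224 against 332 (−0.57), UQCRH 74.4 against 97.4 (−0.38) and UQCRB 35.6 against 40.3 (−0.17).

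Of the complex IV subunits 8 of 10 had lower values on the array labelled LNCaP-AI, against 49.4% of all genes, with a median log2 difference of −0.21. COX7C had 95.5 against 183 on LNCaP (−0.93). COX7B, which was level in the PC3 pair, had 69.9 against 133 (−0.92), and COX5A had 553 against 1049 (−0.92). COX4I1 was 1038 against 1287 and COX5B 70.7 against 85.6. COX6A1, at 1467 against 1556, COX6C, at 42.7 against 46.5, and COX7A2, at 76.5 against 84.7, differed least among the lower ones. COX8A was higher, at 1476 on the array labelled LNCaP-AI against 1015 on LNCaP (0.54), and COX6B1 was 185 against 174. COX8A and COX6B1 thus pointed up here and down in the PC3 pair. With PC3-L in place of the array labelled LNCaP-AI the median of the 10 subunits was −0.37 and COX8A had a log2 difference of 0.11.

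Complex V differed by over 1.5-fold in all 3 genes, with LNCaP-AI the lower array, where 12.3% of all genes were past 1.5-fold lower. ATP5MK had 84.3 against 164 on LNCaP (log2 difference −0.95), ATP5IF1 83.3 against 148 (−0.82) and ATP5MJ 66.5 against 106 (−0.67). LNCaP was the high array for ATP5MK and ATP5IF1. Among the assembly factors of complexes I and II, SDHAF3 was 31.4 against 52.5 (−0.72), NDUFAF8 183 against 287 (−0.64) and SDHAF4 64.1 against 90.1 (−0.48), while SDHAF2 was 144 against 115 (0.32) and NDUFAF7 81.2 against 70.0 (0.21). SDHAF1 was 78.4 on the array labelled LNCaP-AI and 82.0 on LNCaP.

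**Figure D4:**
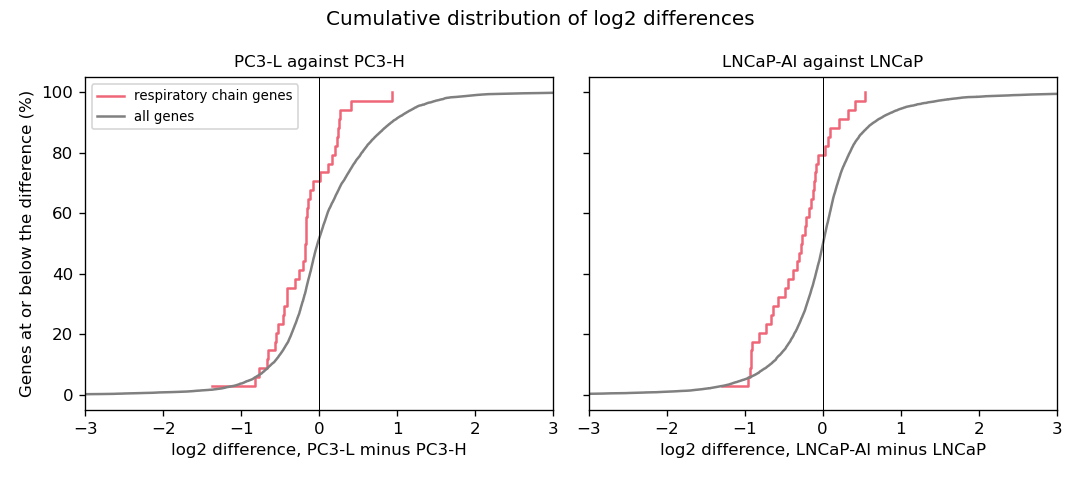
Share of genes at or below each log2 difference for the respiratory chain genes (34 in each pair, red) and all genes past the limit for dim genes (grey), PC3-L minus PC3-H (left) and LNCaP-AI minus LNCaP (right). The red curves cross 0 at 70.6% and 79.4%, the grey curves at 51.6% and 49.4%.

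The pairs share no array, and the members were read across both. Their arrays with the low glycan label, PC3-L and LNCaP-AI, were close, with a correlation of 0.961 over all probes. Agreement between the pairs is therefore not an independent repeat. Of 33 members past the limit in both pairs, 17 were below 0 in both, against 25.7% of 10755 genes, and 1 was above 0 in both, NDUFAF7, against 25.6%. The 17 were ATP5IF1, ATP5MJ, NDUFAF8, SDHAF1, UQCRHL, COX17, COX18, COX19 and the complex IV genes COX4I1, COX4I2, COX5A, COX5B, COX6A1, COX6A2, COX6C, COX7A2 and COX7C. Most of these differences were small in at least 1 pair. COX7C and ATP5MJ were the members past 1.5-fold lower in both. The share of all genes that were so was not computed, so whether the members stand out there cannot be said.

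A fit with limma of the low against the high glycan label over all 4 arrays, adjusted for the labelled line, which left 1 residual degree of freedom, called 0 of 35 members and 0 of 11509 genes at an adjusted p of 0.05 (two-sided, Benjamini-Hochberg over all genes). At an unadjusted p under 0.05 it held 2 members, both lower, against 8.81% of all genes. These were COX7C, with a log2 difference of −0.79 ± 0.25 (SE; adjusted p = 0.485), and ATP5MJ, with −0.75 ± 0.25 (adjusted p = 0.499); each was lower in 2 of 2 pairs. NDUFAF8 had −0.60 ± 0.25 (adjusted p = 0.608). COX18 had −0.72 ± 0.37 and UQCRC1 −0.48 ± 0.49, an error as large as the difference. Below 0 were 30 of 35 members, against 52% of all genes. With 1 array per group, the difference from this fit is the mean of the 2 pair differences. Its directions therefore restate those of the pairs and are no further support for them. The label of the LNCaP-AI array enters this fit as the submitters gave it.

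Between the arrays with the low glycan label, LNCaP-AI and PC3-L, the members' counts were near those of all genes, and these arrays had a correlation of 0.961 over all probes. Of 33 members past the limit 0 were past 2-fold in either direction, against 0.832% of 10942 genes higher and 1.96% lower (2.79% in all). At 1.5-fold 1 was higher and 2 were lower, against 3.14% and 9.07%, and 15 were below 0, against 49.3%. The median log2 difference was 0.01 for the members and 0.005 for all genes. The widest were COX7B, at 69.9 on the array labelled LNCaP-AI against 107 on PC3-L (−0.61), and COX6B1, at 185 against 121 (0.60). Between the arrays with the high glycan label, LNCaP and PC3-H, UQCRC1 was past 2-fold lower on LNCaP (382 against 885, −1.21) and UQCRC2 past 2-fold higher (1051 against 433, 1.28), among 35 members, against 4.49% and 5.46% of 11156 genes (9.95% in all). At 1.5-fold 4 were higher and 2 lower, against 25.3% of all genes in either direction, and 16 were below 0, against 50.7%. The members' median there was 0.10. This comparison and that of PC3-L both use the PC3-H array.

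Other genes of energy metabolism were read from further lists, here and in the next paragraph. Over all genes, 8.58% were past 2-fold higher and 3.77% lower in the PC3 pair. In the LNCaP pair these shares were 5.45% and 5.13%. Counts as small as those of the lists cannot be told apart from such shares. Of 42 listed genes for cytochrome c, CYC1 and assembly factors outside the symbol rule, 35 were measured, and 2 were past 2-fold lower on PC3-L and 0 higher; the list's median was −0.02 on the log2 scale. These were CYC1 and TACO1, a translational activator of COX1, at 185 on PC3-L against 441 on PC3-H (−1.25). In the LNCaP pair 2 were higher and 2 lower, with a median of −0.17. UQCC1 and UQCC2, which act together on new cytochrome b of complex III, differed in opposite directions: UQCC1 was 145 on the array labelled LNCaP-AI against 48.5 on LNCaP (1.56), and UQCC2 was 294 against 611 (−1.05). In the PC3 pair UQCC1 reached 166 on PC3-L and 83.7 on PC3-H (0.98) and UQCC2 235 against 463 (−0.98), each just within 2-fold. DMAC2, a factor of complex I assembly, was 250.4 against 109 in the LNCaP pair (1.19), and ATPAF1, an assembly factor of complex V, was 70.9 against 151 (−1.08).

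Ubiquinone synthesis genes had 1 of 6 measured past 2-fold higher on PC3-L, COQ10B, a ubiquinone-binding protein, at 158 against 75.1 on PC3-H (1.06), and 0 past 2-fold in the LNCaP pair. Regulators of mitochondrial biogenesis had 0 of 7 past 2-fold in the PC3 pair. In the LNCaP pair 1 of 7 was lower, MYC, at 142 on the array labelled LNCaP-AI against 445 on LNCaP (−1.64), while NRF1 was 83.5 against 84.8 and YY1 110.1 against 118. Genes of the citrate cycle and pyruvate dehydrogenase had 0 of 11 past 2-fold in either pair, with medians of −0.09 and −0.18. Of the glycolysis genes 0 of 9 were past 2-fold in the PC3 pair (median −0.35), and 2 of 9 were lower in the LNCaP pair (median 0.03): GPI, which interconverts the hexose phosphates, at 857 against 2317, and the hexokinase HK2, at 91.5 against 187. The mitochondrial porins VDAC1, VDAC2 and VDAC3, the only measured genes of the carrier list, were within 2-fold in both pairs, with medians of 0.28 and −0.65.

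**Figure D5:**
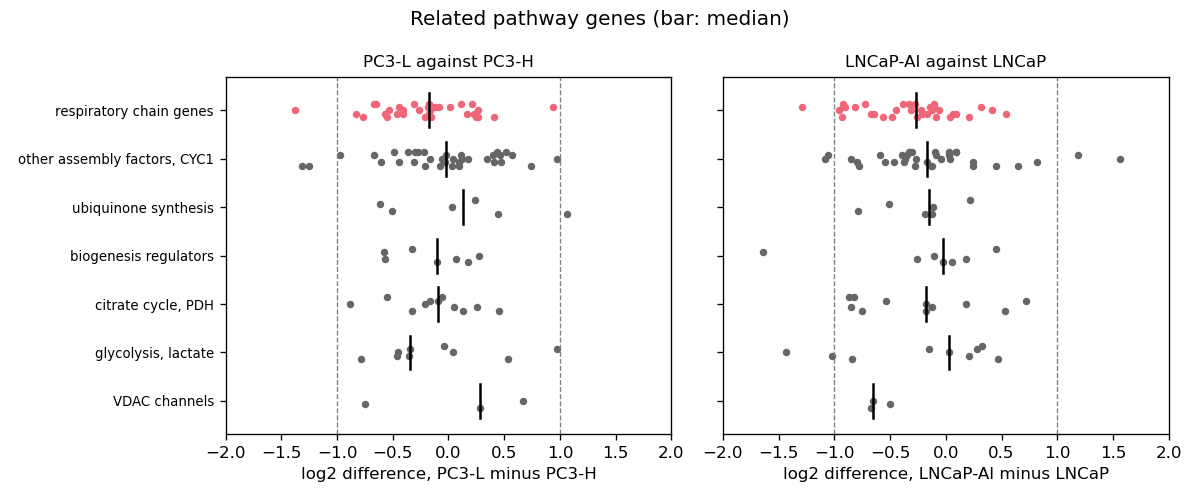
log2 differences of the respiratory chain genes (red) and of genes of related lists (grey), PC3-L minus PC3-H (left) and LNCaP-AI minus LNCaP (right); each point is a gene, black bars are medians and dashed lines mark 2-fold. The respiratory chain medians are −0.18 and −0.27.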

How the data were processed

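Total RNA of 4 cultures was measured on Affymetrix arrays, with RNA extracted by ISOGEN II and labelled with biotin, per the labels' protocols. The deposited unit is linear intensity, judged from the range of the values. The authors' background correction, summarisation and normalization are not given in the sources used here; the series' design text names GeneSpring GX 12.6, a 2-fold threshold and a false discovery rate of 10%. Of 37934 probes, 14952 had a gene symbol, and all matched RefSeq (GRCh38.p14) by Entrez identifier. The brightest probe by mean stood for a gene. Values were taken to log2 after adding 1. A gene entered a pair when its higher value reached the 40th percentile of that array over all probes. Pairs got no p-value; the number of arrays limits the precision. The glycan label was tested with limma 3.58.1 in R 4.3.3 (pandas 2.3.3 for tables), and the fit and the length correction were tested on simulated data. The members and lists were chosen with earlier results of these data known. Genes were named when past 2-fold in a pair, when among the 2 largest in each direction of a complex, or when on a fixed list of core subunits and isoforms; other members are given beside them by complex, and list genes when past 2-fold, the regulators NRF1 and YY1 and the UQCC genes of the PC3 pair being named after their values were seen. Alternatives changed the pseudocount (16), the limit for dim genes (none or the 60th percentile), the scaling, the probe rule, gene length, the array labels and, after seeing the data, the members with near-identical copies.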

Additional observations from a re-analysis of the deposited data

Results flagged for a closer look

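The genes below had log2 differences of opposite sign in the pairs PC3-L against PC3-H and LNCaP-AI against LNCaP, with a gap of at least 1 between them. The difference between the pairs was not tested, since each group had 1 array. These were 4 of 33 members, against 13.2% of 10755 genes, so the count was near the share of all genes. UQCRC2 had 0.94 for PC3 and −0.91 for LNCaP, a gap of 1.85. UQCRC1 had −1.38 and 0.41, a gap of −1.79. COX8A had −0.77 and 0.54, a gap of −1.31. ATP5MK had 0.26 and −0.95, a gap of 1.22.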

How the results depend on the processing

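Counts past 2-fold, medians and limma calls were recomputed under the alternative settings; most counts were 0 or 1 and could hardly move. The members' median ran from −0.24 to −0.13 in the PC3 pair, apart from exchanged labels, and from −0.32 to −0.23 in the LNCaP pair. With a trend with gene length removed, the median log2 difference of the 10 complex IV subunits in the PC3 pair was −0.32. With the glycan labels of the PC3 pair exchanged, as the free-text descriptions give them, the members' median was 0.18, that of the complex IV subunits 0.45, and UQCRC1 had 1.38, so that the 1 member past 2-fold was higher, by construction. With PC3-L in place of the array labelled LNCaP-AI, 0 members were past 2-fold, the complex IV median was −0.37 and COX18 had −0.88; the cause was not tested. Limma called 0 members under all 11 alternatives, including each array left out in turn without the covariate (lowest and highest count 0 and 0), with 0 to 6 members at an unadjusted p under 0.05. Over all genes it called 280 without PC3-H, 71 without LNCaP and 115 with an intensity trend, and 0 otherwise. With the PC3 labels exchanged, the members' median in that fit was −0.02. Each group had 1 array, so no replicate numbers pair arrays within a comparison of single groups. The limma fit adjusted for the line is the paired comparison, of low with high within the PC3 and LNCaP pairs. Leaving out genes with near-identical copies, chosen after seeing the data, kept the count of 1 in both pairs. Single arrays give no spread, and members near the limit for dim genes may have understated differences.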
